A study of Homo sapiens with 12 samples.

Results

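Metallothioneins are small, cysteine-rich proteins that bind zinc, copper and cadmium in the cytosol. The expression of 8 human metallothionein genes (MT1A, MT1E, MT1F, MT1G, MT1H, MT1M, MT1X and MT2A) was followed in CD133+ and CD133- cells of gastric cancer lines. The 8 genes were taken by symbol from a table of 34595 genes with a value, and 7 of them lay above the detection floor on at least 2 arrays, as did 20147 of the 34595 genes. MT1M was the member that did not.

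The cells came from 3 established gastric cancer cell lines, KATO-III, SNU-216 and SNU-601, all grown in the same medium with calf serum and given no treatment. Each line was stained with an antibody against CD133, the membrane glycoprotein encoded by PROM1, and sorted by flow cytometry into a CD133+ fraction (the brightest 10% of cells) and a CD133- fraction (the dimmest 6%). The 6 populations are KATO-III CD133+, KATO-III CD133-, SNU-216 CD133+, SNU-216 CD133-, SNU-601 CD133+ and SNU-601 CD133-, and each was hybridized on 2 Illumina HT-12 v3 BeadChip arrays, 12 in all. The sources used here do not state whether the 2 arrays of a population came from separate sorts. P-values within a line, between lines and of the interaction thus measure only the spread between these arrays, which may be technical. In the fit over the lines the spread also holds differences between the lines in the change between fractions. RNA came from whole fractions, in which fewer cells expressing a gene and less RNA per cell cannot be told apart.

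In most cells metallothioneins hold a reserve of zinc and buffer free metal ions. Their promoters carry metal response elements, short motifs bound by the zinc-sensing factor MTF1, and the genes are switched on by zinc, cadmium, glucocorticoids and oxidative stress. MT2A and the MT1 isoforms are made in many tissues, whereas MT3 and MT4 are known mainly from brain and from stratified epithelium. The genes lie side by side on chromosome 16. RefSeq gives the order MT4, MT3, MT2A, MT1L, MT1E, MT1M, MT1JP, MT1A, MT1DP, MT1CP, MT1B, MT1F, MT1G, MT1H, MT1IP and MT1X, with BBS2 before and NUP93 after the cluster.

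Promoters are shown because MT2A and MT1X, which share the metal response motif, moved in opposite directions in one of the lines. The RefSeq table used here held the promoters of 3 of the 8 members, MT2A, MT1H and MT1X. The 250 bases before each transcription start are printed 5′ to 3′ on the plus strand of GRCh38.p14. Capitals mark each match to the core of the metal response element, searched as TGCACNC and TGCGCNC on both strands (N is any base), so a match on the other strand appears as its reverse complement.
MT2A, chr16:56608334-56608583: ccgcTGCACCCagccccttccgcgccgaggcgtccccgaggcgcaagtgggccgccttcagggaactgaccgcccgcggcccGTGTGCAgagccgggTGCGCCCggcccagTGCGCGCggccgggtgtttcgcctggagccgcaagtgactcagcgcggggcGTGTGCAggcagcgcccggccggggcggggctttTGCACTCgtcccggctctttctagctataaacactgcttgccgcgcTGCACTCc
MT1H, chr16:56669564-56669813: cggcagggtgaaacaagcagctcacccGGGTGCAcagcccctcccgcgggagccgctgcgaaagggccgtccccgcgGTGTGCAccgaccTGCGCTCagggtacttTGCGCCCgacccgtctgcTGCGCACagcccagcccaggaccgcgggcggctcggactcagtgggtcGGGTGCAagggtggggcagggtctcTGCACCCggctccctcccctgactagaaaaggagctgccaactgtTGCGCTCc
MT1X, chr16:56682220-56682469: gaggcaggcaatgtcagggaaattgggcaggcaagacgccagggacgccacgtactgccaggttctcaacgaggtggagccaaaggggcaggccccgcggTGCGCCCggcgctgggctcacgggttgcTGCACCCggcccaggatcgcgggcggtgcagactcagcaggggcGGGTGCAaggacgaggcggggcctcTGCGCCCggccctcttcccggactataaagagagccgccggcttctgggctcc

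MT2A held 7 matches, 5 of TGCACNC and 2 of TGCGCNC. MT1H held 8 matches, 4 of each form, and MT1X held 4, 2 of each form. Among 35116 promoter windows of the same 250 bases in RefSeq, 24.8% held at least 1 match, 0.37% held at least 4, 0.0313% at least 7 and 0.0171% at least 8. A match on the plus strand began 54 bases before the start in MT2A and 53 bases before it in MT1H and MT1X, with the form TGCACNC in MT2A and MT1H and TGCGCNC in MT1X. MT1H and MT1X also shared a match on the other strand from 78 to 72 bases before the start, and in MT2A the nearest such match lay from 88 to 82 bases before it. A match is a description of the sequence and no evidence of binding.

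**Figure D1:**
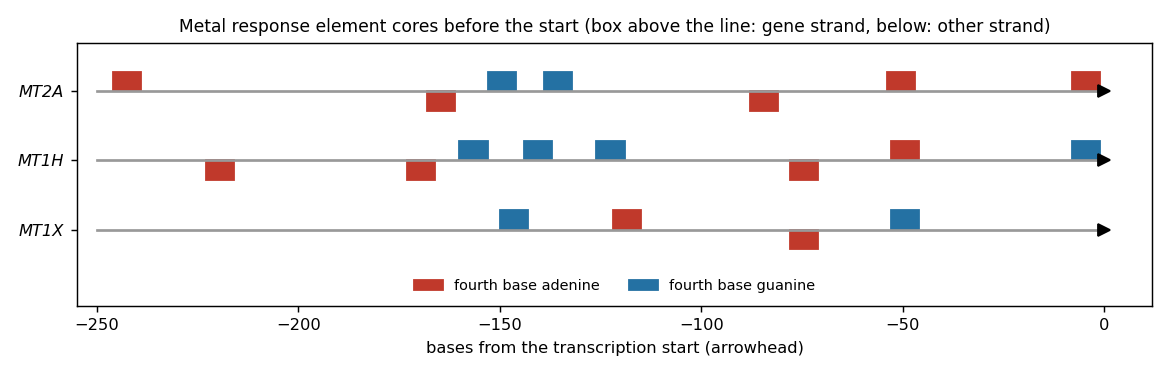
Positions of the metal response element cores in the 250 bases before the transcription start of MT2A, MT1H and MT1X; the x axis gives bases from the start, boxes above the line are on the gene's strand and boxes below it on the other strand. MT2A has 7 boxes, MT1H 8 and MT1X 4, and all 3 promoters have a box on the gene's strand between -54 and -47.

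Expression is given as quantile-normalized intensity on a linear scale in arbitrary units. Background had been subtracted, so an absent transcript scatters around 0. The floor used here, 32.7, is the distance from 0 of the 1st percentile over the whole table, and changes are log2 differences after values under the floor were set to it. Each array had 16320 to 16474 genes over this floor, and log2 values of the 2 arrays of a population correlated across genes at r = 0.993 to 0.995. PROM1 checked the labels of the fractions, with log2 changes of CD133+ against CD133- of 1.10 in KATO-III, 2.02 in SNU-216 and 1.86 in SNU-601 (limma adjusted p = 2.38e-06, 3.02e-07 and 5.65e-06). All 7 epithelial markers (EPCAM, its older symbol TACSTD1, KRT8, KRT18, KRT19, CDH1 and CLDN4) lay above the floor on all 12 arrays. Of 12 markers of blood, stromal and endothelial cells, 5 lay above the floor on any array. Their summed intensity, mostly LYZ in KATO-III and SNU-601, was 8005 to 8423 in KATO-III CD133+ cells and 5797 to 6047 in KATO-III CD133- cells, 66.4 to 94.1 in SNU-216 and 9246 to 10215 in SNU-601, while PTPRC, the pan-leukocyte marker, was under the floor on every array. In KATO-III, LYZ and COL1A1 were higher in CD133+ cells (log2 changes 0.66 and 0.84, adjusted p = 1.98e-05 and 0.00977) and CD14 lower (-0.53, adjusted p = 0.00609), whereas none of these 3 was called in the other lines. The part of these markers in the results was not tested. Members with several probes are given as the single value the deposited table holds, and reading of one metallothionein by another's probe was not tested.

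The metallothioneins did not move as a block between the fractions. In KATO-III, MT1A and MT1G were higher in CD133+ cells. In SNU-216, MT1A, MT1G and MT2A were lower in CD133+ cells and MT1X was higher. In SNU-601, MT1A, MT1F, MT1G and MT2A were higher in CD133+ cells. MT1E, whose log2 changes lay between -0.13 and 0.21, passed the test in none of the lines.

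Counts of called members are read against the share of all 20147 tested genes called in the same direction (limma, Benjamini-Hochberg adjusted p under 0.05). In KATO-III, 2 of 7 members were called higher, against 18.7% of all genes, and 0 were called lower, against 20.6%. At an unadjusted p under 0.05 the KATO-III counts were 4 higher (MT1A, MT1F, MT1G and MT2A), against 22.0% of all genes, and 1 lower (MT1X), against 23.8%. In SNU-216, 1 member was called higher, against 14.6% of genes, and 3 were called lower, against 14.0%. In SNU-601, 4 were called higher, against 8.59%, and 0 lower, against 7.78%, and at an unadjusted p under 0.05 the counts there were the same, 4 higher against 14.2% and 0 lower against 14.4%. The median log2 change of the members was 0.18 in KATO-III, -0.19 in SNU-216 and 0.37 in SNU-601, where the median of all tested genes was 0 in each line. MT1H, under the floor in SNU-216 and SNU-601, is left out of those medians.

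MT2A, the most widely expressed of the human metallothioneins, had intensities of 9703 and 10115 on the SNU-216 CD133+ arrays and 15339 and 16138 on the SNU-216 CD133- arrays. The CD133- arrays of SNU-216 were thus the highest of the 12, and the fractions did not overlap. With 2 arrays per fraction, a lack of overlap, here and below, arises readily without a difference. Its share over all genes was not counted. The log2 change of CD133+ against CD133- was -0.67 (SE 0.0647, adjusted p = 0.000122), 1.59-fold lower in CD133+ cells. In SNU-601 the order was the other way round. Intensities there were 1800 and 1735 in CD133+ cells and 1209 and 1112 in CD133- cells, a log2 change of 0.61 (SE 0.0647, adjusted p = 0.000695). In KATO-III the arrays read 5558 and 5111 in CD133+ cells and 4920 and 4522 in CD133- cells. The KATO-III arrays did not overlap, but the log2 change of 0.18 (95% interval 0.03 to 0.32) had an adjusted p of 0.0596.

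MT1A, an isoform of the inducible MT1 group, followed the same signs as MT2A in each line. Its intensities in KATO-III were 12385 and 11921 in CD133+ cells and 9197 and 10318 in CD133- cells, without overlap. The log2 change was 0.32 (SE 0.0599, adjusted p = 0.0027). In SNU-216 the arrays read 7445 and 7581 in CD133+ cells and 10916 and 10817 in CD133- cells. This was a fall of 0.53 on the log2 scale (log2 change -0.53, SE 0.0599, adjusted p = 0.000271), and the fractions did not overlap. In SNU-601 the CD133+ arrays read 2123 and 2036 and the CD133- arrays 1700 and 1823. The log2 change of 0.24 (SE 0.0599, adjusted p = 0.0267) was the smallest change called among the members, and its adjusted p was 0.133, 0.0641 and 0.144 without SNU-601 CD133+ replicate 1, CD133+ replicate 2 and CD133- replicate 1.

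MT1G, another MT1 isoform, spanned the widest range of the members across the lines. In KATO-III it read 12080 and 12316 in CD133+ cells and 8539 and 8890 in CD133- cells, a log2 change of 0.49 (SE 0.135, adjusted p = 0.0192). In SNU-601 it read 269 and 290 in CD133+ cells and 193 and 199 in CD133- cells, a change of 0.51 (SE 0.135, adjusted p = 0.0343). In both lines the CD133+ arrays lay above the CD133- arrays without overlap. The call in KATO-III was lost when any of the 4 KATO-III arrays was left out (adjusted p 0.0696 to 0.101). The call in SNU-601 was lost without any of the 4 SNU-601 arrays (0.0897 to 0.154) and without any of the 4 KATO-III arrays (0.0623 to 0.0738).

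In SNU-216, MT1G was close to the floor. The CD133+ arrays read 18.4, under the floor, and 38.5, and the CD133- arrays 111 and 81.6, all lower than in the other lines. The size of the log2 change of -1.43 (SE 0.135, adjusted p = 0.000108) therefore depended on the floor. A floor of 100 lies above 18.4, 38.5 and 81.6, so it had to remove most of the change. With that floor it was -0.08 (adjusted p = 0.430), and this was the 1 of 21 alternatives in which the call was lost.

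MT1X, the last gene of the cluster, was the member called higher in SNU-216 CD133+ cells. Its intensities there were 2118 and 2265 in CD133+ cells and 1233 and 1463 in CD133- cells, without overlap. The log2 change was 0.71 (SE 0.0840, adjusted p = 0.000367), 1.63-fold higher, in the line where MT2A was 1.59-fold lower. In KATO-III MT1X read 4920 and 5240 in CD133+ cells and 5544 and 6175 in CD133- cells. The arrays did not overlap, and the log2 change of -0.20 (95% interval -0.40 to -0.01) had an adjusted p of 0.0879. In SNU-601 it read 2898 and 2805 in CD133+ cells and 2629 and 2641 in CD133- cells, a log2 change of 0.11 (adjusted p = 0.447).

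MT1F, an MT1 isoform, was higher in SNU-601 CD133+ cells. The arrays read 609 and 571 in CD133+ cells against 408 and 367 in CD133- cells, a log2 change of 0.61 (SE 0.0995, adjusted p = 0.0042). The other lines had changes of the same sign that missed the threshold. In KATO-III MT1F read 2286 and 2488 in CD133+ cells and 2107 and 1939 in CD133- cells, and the log2 change was 0.24 (95% interval 0.01 to 0.46, adjusted p = 0.0923). In SNU-216 it read 465 and 565 in CD133+ cells and 452 and 468 in CD133- cells, so the fractions overlapped, and the log2 change was 0.16 (adjusted p = 0.314).

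MT1E, encoded next to MT2A among the protein-coding genes measured, had overlapping fractions in every line. In KATO-III it read 5664 and 5993 in CD133+ cells and 5513 and 5877 in CD133- cells. In SNU-216 it read 1380 and 1717 in CD133+ cells and 1281 and 1391 in CD133- cells. In SNU-601 it read 47.8 and 50.8 in CD133+ cells and 58.5 and 49.5 in CD133- cells, just above the floor. The log2 changes were 0.03 (95% interval -0.23 to 0.29), 0.21 (-0.05 to 0.46) and -0.13 (-0.39 to 0.13), with adjusted p of 0.915, 0.237 and 0.556.

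MT1H was measured in KATO-III alone. There it read 1179 and 1096 in CD133+ cells and 1266 and 1380 in CD133- cells, a log2 change of -0.22 (95% interval -0.46 to 0.03, adjusted p = 0.155). On the 8 arrays of SNU-216 and SNU-601 it lay between -27.2 and 8.83, under the floor. MT1M lay between -34.4 and 2.28 on the 12 arrays, and the floor gives an upper bound for it in every population.

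**Figure D2:**
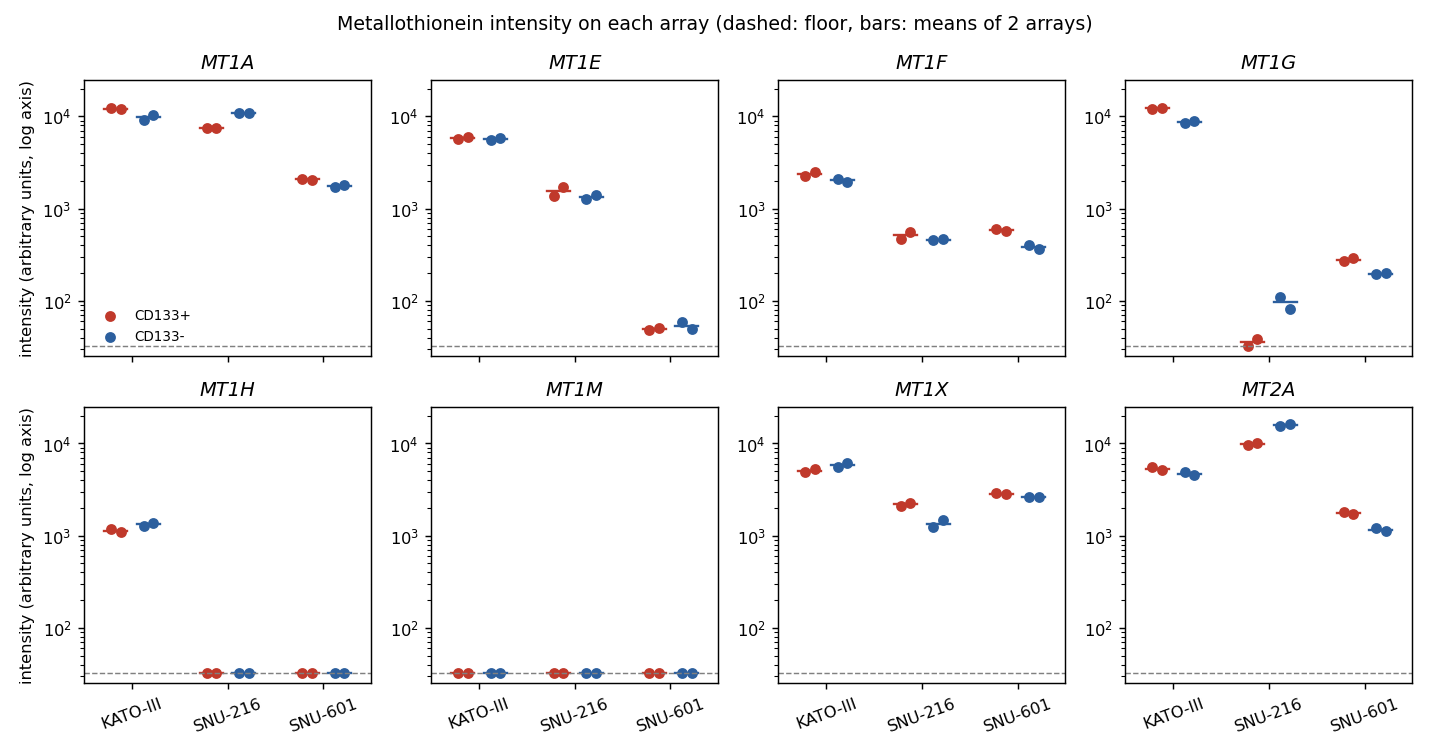
Intensity of the 8 metallothionein genes on each of the 12 arrays (log axis, arbitrary units), with CD133+ arrays in red and CD133- arrays in blue, bars at the mean of 2 arrays and the floor of 32.7 as a dashed line, at which lower values are drawn. MT2A is highest in SNU-216 CD133- cells, MT1E falls from KATO-III to SNU-216 to SNU-601 by steps larger than those between its fractions, MT1H is above the floor in KATO-III only, and MT1M sits at the floor throughout.

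**Figure D3:**
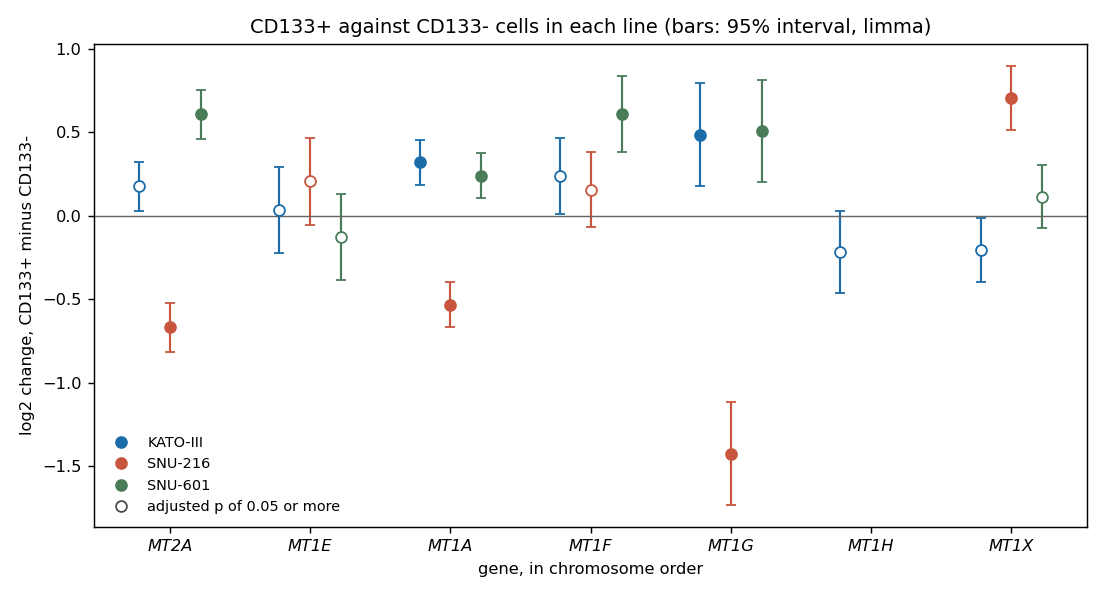
Log2 change of CD133+ against CD133- cells in each line for the 7 tested metallothioneins in chromosome order, with 95% intervals from limma and filled points for adjusted p under 0.05. MT2A, MT1A and MT1G lie below 0 in SNU-216 and at or above 0 in the other lines, while MT1X lies at 0.71 in SNU-216; MT1H is drawn for KATO-III, where it was measured.

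Whether the difference between fractions itself differed between the lines was tested as the interaction of line and fraction. It passed for 4 of the 7 members, against 44.4% of all tested genes. The adjusted p was 3.83e-05 for MT2A, 0.0001 for MT1G, 0.000131 for MT1A and 0.000862 for MT1X. For MT1F, with changes of one sign in the 3 lines, it was 0.0535. It was 0.272 for MT1E and 0.423 for MT1H. MT1H counts among the 7, but the floor fixed its changes in SNU-216 and SNU-601 at 0, so the test cannot decide for it.

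In the fit over the 3 lines, blocked on cell line, no member was called in either direction (0 of 7, limma), against 2.62% of genes called higher and 2.11% called lower. The member nearest to the threshold was MT1F, with a log2 change of 0.33 (SE 0.0925, adjusted p = 0.0601), and MT1F alone (1 of 7) had an unadjusted p under 0.05, as 11.5% of all genes did in the higher direction. The changes of the other members lay between -0.14 for MT1G and 0.20 for MT1X. MT1F was called (adjusted p = 0.0497) without SNU-216 CD133+ replicate 1. The signal-to-noise ratio sets the gap between the mean of 6 CD133+ arrays and that of 6 CD133- arrays against the summed SDs, and it lay between -0.15 for MT2A and 0.12 for MT1F on linear intensity. None of the 8 members passed 1 or -1, as 0.960% of all genes did. The SDs pool the 3 lines and hold the differences between them. For members that differ widely between lines, a small ratio therefore says little about changes within a line.

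The members also differed between the lines. The 3 contrasts below average both fractions of a line, and any pair of them shares the arrays of a line. KATO-III had the highest mean for the 6 tested MT1 members and SNU-216 for MT2A. MT1E was near the floor in SNU-601, MT1G was near it in SNU-216, and MT1H was under it in both of these lines. MT1H passed the filter through its KATO-III arrays alone. Its place here and in the counts of KATO-III against either line was thus fixed in advance.

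Against SNU-216, KATO-III was higher for 6 of the 7 tested members, counting MT1H, and lower for 1. Of all genes, 30.3% were higher and 31.7% lower. MT1G had a log2 difference of 7.47 (SE 0.0954) against an SNU-216 level close to the floor, and of 6.65 with a floor of 100 and 6.04 with an offset of 100. MT1H, under the floor in SNU-216, has only a lower bound, given below with that against SNU-601. The differences were 2.18 (SE 0.0704) for MT1F, 2.01 (SE 0.0806) for MT1E and 1.67 (SE 0.0594) for MT1X. MT1A, with 0.27 (SE 0.0423, adjusted p = 0.000394), differed least of those called higher. MT2A was the member that ran the other way, at -1.32 (SE 0.0458, adjusted p = 7.63e-09).

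Against SNU-601, KATO-III was higher for all 7 tested members, counting MT1H, where 28.7% of all genes were higher and 29.9% lower. The log2 differences ran from 0.99 (SE 0.0594) for MT1X through 1.81 for MT2A, 2.20 for MT1F and 2.51 for MT1A to 5.46 for MT1G and 6.81 (SE 0.0806) for MT1E. MT1E was near the floor in SNU-601, and its difference was 5.85 with a floor of 100 and 5.27 with an offset of 100. For MT1H the mean in KATO-III was 1230, against -20.2 in SNU-216 and -5.85 in SNU-601. Since both lie under the floor, MT1H was at least 37.5-fold higher in KATO-III than in either line at this floor. This bound, a log2 difference of 5.23 against each line, was 3.62 with a floor of 100 and 6.26 with a floor of 16. With an offset of 100 the differences were 4.06 against SNU-216 and 3.83 against SNU-601. All arrays of SNU-216 and SNU-601 were set to the floor and had no spread. The limma adjusted p (1.99e-11 against SNU-216 and 4.67e-11 against SNU-601) thus does not measure the spread in those lines.

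Between SNU-216 and SNU-601, 3 members were higher in SNU-216, against 29.4% of genes, and 2 were lower, against 27.1%. MT1E was higher by 4.80 on the log2 scale (3.84 with a floor of 100, 3.34 with an offset of 100), MT2A by 3.12 and MT1A by 2.24. MT1G was lower in SNU-216 (log2 difference -2.01, or -1.19 with a floor of 100 and -1.08 with an offset of 100) and so was MT1X (-0.68). MT1F did not pass, with a difference of 0.02 (95% interval -0.14 to 0.18, adjusted p = 0.828).

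The order of the 6 populations differed by member. For MT2A it ran SNU-216 CD133-, SNU-216 CD133+, KATO-III CD133+, KATO-III CD133-, SNU-601 CD133+ and SNU-601 CD133-, and no neighbouring populations overlapped. For MT1A it ran KATO-III CD133+, SNU-216 CD133-, KATO-III CD133-, SNU-216 CD133+, SNU-601 CD133+ and SNU-601 CD133-, also without overlap, so the fractions of KATO-III and SNU-216 interleaved. For MT1X the KATO-III populations came first, then those of SNU-601 and then those of SNU-216. For MT1G the KATO-III populations came first, at 31.2-fold over SNU-601 CD133+ cells from the lower of them, and SNU-216 last. For MT1F the lower KATO-III population lay 3.43-fold above SNU-601 CD133+ cells, and the CD133+ and CD133- arrays of SNU-216 overlapped. For MT1E the lines came in the order KATO-III, SNU-216 and SNU-601 with steps of 3.68-fold and 24.7-fold, and the fractions of each line overlapped.

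Across the 12 arrays the members' log2 intensities were compared in pairs. Pearson's r was 0.96 for MT1A with MT1E, 0.86 for MT1A with MT2A, 0.87 for MT1F with MT1X and -0.33 for MT1X with MT2A. After each line was centred on its own mean, MT1A and MT2A still had r = 0.86. MT1X had r = -0.61 with MT2A and -0.76 with MT1A on the same centred values, and MT1A with MT1E went from 0.96 to -0.50. These are descriptions over 12 arrays that share 3 lines, 6 populations and 1 normalization.

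The genes whose pattern was most like MT2A's were looked for among 11669 genes outside the members that lay above the floor on all 12 arrays. Over the 12 arrays they were AGAP3 (r = 0.997), NT5DC2, UCHL5IP, MTA1 and ST3GAL1 (0.993). After centring within lines they were AGAP3 (r = 0.979), GNA12 (0.979), LOC100133328, IFI6 and PDIA4 (0.968). For MT1X they were PHCA and ARSD (r = 0.993), PCSK5, KCTD14 and PQLC3 (0.985), and after centring SEL1L3 (0.977), ETV5, PPP2R2B, HS.19339 and UGT1A6 (0.961). Among the 5 nearest genes of each search, AGAP3 was found both ways for MT2A, and no gene was found both ways for MT1X.

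The table held 8 further rows for metallothionein genes and pseudogenes. MT3, MT4, MT1B, MT1JP, MT1L and MT1P2 lay under the floor on every array. MTE is listed by RefSeq as an older symbol of MT1IP, but the table holds a separate row for each with other values, so which transcript the MTE row measured is not known here. The MTE row read 2905 and 2856 in KATO-III CD133+ cells and 2047 and 1761 in CD133- cells, a log2 change of 0.60 (adjusted p = 0.00519). In SNU-216 it read 429 and 367 in CD133+ cells and 505 and 467 in CD133- cells (log2 change -0.29, adjusted p = 0.130), and in SNU-601 it lay between 11.6 and 40.3. The interaction passed for the MTE row (adjusted p = 0.0075). The MT1IP row, named for a pseudogene, lay between 9.16 and 52.4, near the floor, with a log2 change of 0.58 in SNU-216 (adjusted p = 0.0207).

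The changes were also set out in gene order along chromosome 16, and their relation to position was not tested. In SNU-216, MT2A, MT1A and, close to the floor, MT1G were lower in CD133+ cells. MT1X, the last gene of the cluster, was higher, and MT1E and MT1F, which lie among the members that were lower, did not pass. Of 11 genes described on both sides of the cluster, 8 were tested, and 2 were higher and 2 lower in KATO-III CD133+ cells, 1 higher and 0 lower in SNU-216, and 0 higher and 2 lower in SNU-601. NUDT21, a factor of messenger RNA 3′ end processing on the MT4 side, had a log2 change of 0.57 in SNU-216 (adjusted p = 0.0133). HERPUD1, an endoplasmic reticulum stress gene on the MT1X side, had -0.44 in KATO-III and -0.34 in SNU-601. BBS2 and NUP93, which flank the cluster, had log2 changes of 0.41 (adjusted p = 0.00739) and 0.12 (0.361) in KATO-III. BBS2 was not called in the other lines, and NUP93 was called in none.

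**Figure D4:**
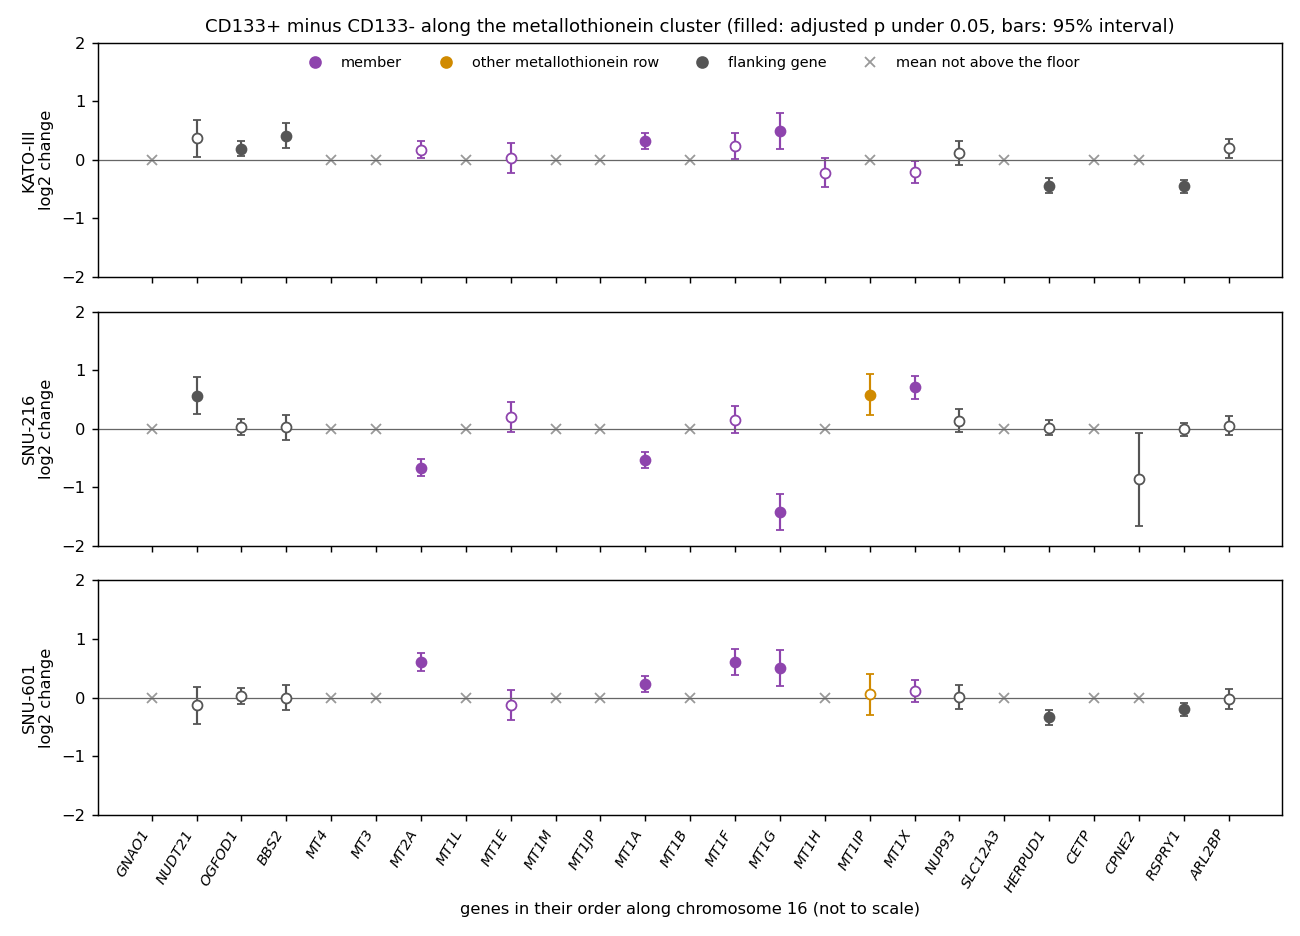
Log2 change of CD133+ against CD133- cells for genes in their order along chromosome 16 (not to scale), one panel per line, with 95% intervals, filled points for adjusted p under 0.05 and crosses for genes whose mean was not above the floor. In SNU-216, MT2A (-0.67), MT1A (-0.53) and MT1G (-1.43) lie below 0 and MT1X (0.71) above it.

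Genes that sense or move metals were described by their counts beside the members. Of all tested genes, 18.7% were called higher and 20.6% lower in KATO-III CD133+ cells. These shares were 14.6% and 14.0% in SNU-216 and 8.59% and 7.78% in SNU-601. The counts of the lists below and of the flanking genes above were not tested against them. MTF1, the zinc sensor that binds metal response elements, read 505 and 538 in KATO-III CD133+ cells and 626 and 684 in CD133- cells (log2 change -0.33, adjusted p = 0.0157). In SNU-601 MTF1 read 647 and 671 in CD133+ cells and 1010 and 1089 in CD133- cells (log2 change -0.67, adjusted p = 0.00149). MTF1 was lower in CD133+ cells of the lines where MT1A and MT1G were higher. In SNU-216, where MT1A, MT1G and MT2A were lower, its log2 change was 0.24 (adjusted p = 0.0715), not called. These values are of MTF1 RNA, and whether MTF1 acted on the members was not tested. SLC30A1, the zinc exporter of the plasma membrane and a known MTF1 target, read 784 and 766 against 480 and 504 in KATO-III and 398 and 350 against 227 and 231 in SNU-216 (CD133+ against CD133-). Its log2 changes were 0.66, 0.70 and, in SNU-601, -0.24 (adjusted p = 0.00023, 0.000288 and 0.0817). SLC30A1 and MT2A had opposite signs in SNU-216 and in SNU-601, where SLC30A1 was not called. In KATO-III they had the same sign, and MT2A was not called there (0.18). In SNU-216 SLC30A1 had the sign of MT1X (0.71).

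Of 9 transcription factors known to act at metallothionein promoters, all tested, 3 were higher and 3 lower in KATO-III CD133+ cells, 3 higher and 3 lower in SNU-216, and 0 higher and 2 lower in SNU-601. In KATO-III these included NFE2L2, the oxidative stress factor (log2 change 1.04), HIF1A (0.89) and USF1 (0.84). EPAS1, which like HIF1A encodes a hypoxia-inducible factor, was higher in SNU-216 (1.48) and lower in KATO-III (-0.77). HIF1A was higher (0.78) and USF2 lower (-0.64) in SNU-216. STAT3 was called lower in each line and over the lines (-0.38, adjusted p = 0.0180), and NR3C1, the glucocorticoid receptor, was called in none. The median change of the list was -0.05 in KATO-III, 0.16 in SNU-216 and -0.04 in SNU-601.

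Of 10 SLC30 zinc exporters, 7 were tested, with 3 higher and 1 lower in KATO-III CD133+ cells, 2 higher in SNU-216 and 2 higher in SNU-601. SLC30A6 was called higher over the lines (log2 change 0.66, adjusted p = 0.0374). Of 14 SLC39 zinc importers, 12 were tested, with 4 higher and 4 lower in KATO-III, 3 higher and 2 lower in SNU-216 and none called in SNU-601. In KATO-III the extremes were SLC39A8, an importer of zinc, manganese and cadmium (1.93), and SLC39A5 (-1.89). Of 13 copper-handling genes, 2 were higher and 4 lower in KATO-III, and 1 was higher and 1 lower in SNU-216 and in SNU-601. The copper chaperone CCS had a log2 change of -0.96 in KATO-III.

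Other genes known to be induced by the agents that induce metallothioneins did not share their directions throughout. Of 11 metal-induced stress genes, 10 were tested, with 3 higher and 4 lower in KATO-III, 3 higher and 2 lower in SNU-216 and 1 higher and 2 lower in SNU-601. HMOX1, which degrades heme, had a log2 change of -1.09 in KATO-III and 0.48 in SNU-216, opposite in sign to MT1A in the same lines. TXNRD1, a thioredoxin reductase, had -0.43, 0.68 and -0.25 in KATO-III, SNU-216 and SNU-601, each called, also opposite in sign to MT1A. HMOX1 and TXNRD1 had the sign of MT1X in KATO-III (MT1X -0.20, not called) and in SNU-216 (MT1X 0.71). GCLC had 0.65 in KATO-III (limma adjusted p = 0.00169), with the sign of MT1A there. How these genes relate to the members was not tested. GCLM, a subunit of the enzyme that starts glutathione synthesis, had 0.38, -0.24 and 0.28, each called (adjusted p = 0.00283, 0.0356 and 0.0319), with the sign of MT1A in every line. Of 10 rows for glucocorticoid-induced genes, 8 were tested, with 0 higher and 5 lower in KATO-III, 3 higher and 1 lower in SNU-216 and none called in SNU-601. SGK and SGK1 are old and current symbols of one gene and stand in 2 of these rows, both lower in KATO-III and both higher in SNU-216. CEBPD had the largest called change of this list in SNU-216 (-0.60, limma adjusted p = 0.000407), with the sign of MT1A and MT2A there. In KATO-III CEBPD was also lower (-0.26, adjusted p = 0.0206), opposite in sign to MT1A. DUSP1, a phosphatase of MAP kinases, had -1.79 in KATO-III. The medians of the metal-induced and glucocorticoid-induced lists were -0.12 and -0.26 in KATO-III, 0.07 and 0.18 in SNU-216, and -0.14 and -0.04 in SNU-601.

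**Figure D5:**
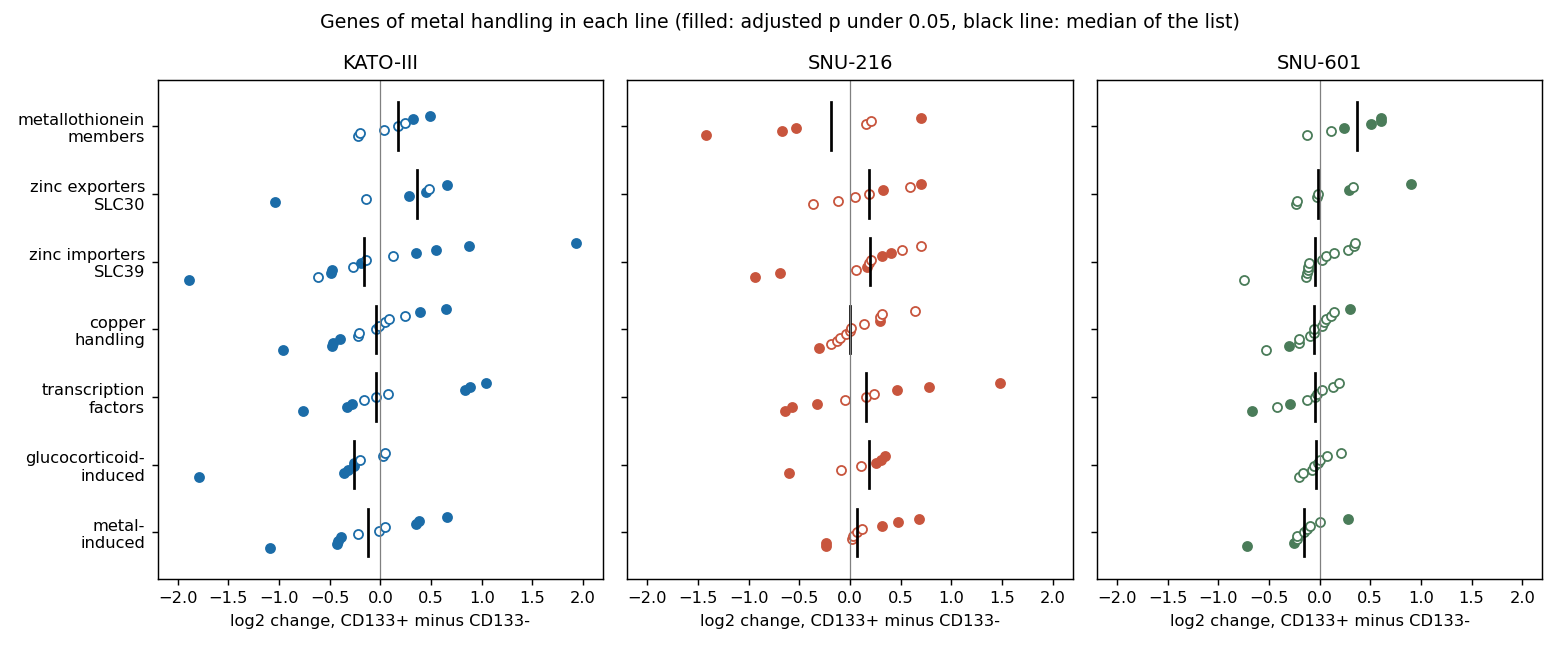
Log2 change of CD133+ against CD133- cells for genes of each list, one panel per line, filled where the adjusted p was under 0.05. Tested genes are drawn where the mean of a fraction of the line lay above the floor, with a black line at their median. Medians in the text take genes above the floor on any array of the line, so they can differ slightly from those drawn. The metallothionein median is -0.19 in SNU-216 and 0.37 in SNU-601, and the medians of the other lists lie between -0.26 and 0.36 over the lines.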

How the data were processed

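Sorted CD133+ and CD133- cells of 3 gastric cancer lines were profiled on 12 Illumina HT-12 v3 arrays, 2 per population, and groups follow the labels. The deposited values are quantile-normalized, background-subtracted intensities on a linear scale that the authors made with BeadStudio, 1 row per gene symbol. The estimation of the background and the combination of probes are not given in the sources used here. Of 34688 rows 93 are empty, and 32.1% of values are at or below 0. Values under 32.7 were set to that floor before log2, and genes above it on at least 2 arrays were tested.

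All tests were run on the whole table with limma 3.58.1 in R 4.3.3 (mean-variance trend, Benjamini-Hochberg, adjusted p 0.05). Contrasts within and between lines and the interaction came from a model of 6 population means (6 residual degrees of freedom), and the comparison over lines from a model with cell line as a block (8 degrees). Scripts were tested on simulated data. All members were named in full, with PROM1, MTF1 and SLC30A1, and from each other list at most the 3 called genes with the largest change per comparison. NUP93, NR3C1, EPAS1 in KATO-III, GCLM in KATO-III and SNU-216, and the further metallothionein rows were named outside this rule, after their values were seen, and 1 gene of the flanking list is not reported here. The members and lists were chosen with earlier results of these data known. Promoters were taken from RefSeq (GRCh38.p14) and figures were drawn with Python 3.11.15, pandas 2.3.3 and matplotlib 3.10.9. Alternatives changed the floor, the normalization, the trend, the filter, the replicate block and the arrays left out, and a fit on the 4 arrays of a line was chosen after seeing the data.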

Additional observations from a re-analysis of the deposited data

Results flagged for a closer look

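For 4 metallothioneins the difference between CD133+ and CD133- cells itself differed between the lines, by the interaction test of limma over 12 arrays. The adjusted p was 3.83e-05 for MT2A, 0.000131 for MT1A, 0.0001 for MT1G and 0.000862 for MT1X. MT2A and MT1A were lower in CD133+ cells in SNU-216 and higher in SNU-601, on both arrays of each fraction. MT1G had the same signs, and its SNU-216 values were close to the floor. MT1X was higher in CD133+ cells in SNU-216. Over the alternatives run for the interaction (20 for MT1G, 21 for the others), the highest adjusted p was 0.000506 for MT2A, 0.00143 for MT1A, 0.002 for MT1G and 0.00669 for MT1X. The interaction passed for 44.4% of all tested genes, so these members do not stand apart in passing it.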

How the results depend on the processing

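The calls of MT2A, MT1A and MT1X in SNU-216, of MT2A and MT1F in SNU-601 and of MT1A in KATO-III held under all 22 alternatives. The count of members called in KATO-III (2) was 1 with a floor of 16, 4 with a floor of 100, 4 with an offset of 100 and 1 without a filter, and 1 to 3 when arrays were left out in turn. The count in SNU-601 (4) was 2 without a trend and 2 without a filter, and 2 to 4 when arrays were left out. Over the lines the count (0) was 1, MT1F, when genes had to lie above the floor on all 12 arrays (adjusted p = 0.0457), and 0 to 1 when arrays were left out. After averaging both arrays of a population, MT1F had an adjusted p of 0.796 over the lines.

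Signs turned for values that had not been called. The change of MT1G over the lines (-0.14) was 0.305 with a floor of 100 and 0.0741 with an offset of 100, and -0.239 to 0.0715 when arrays were left out. Leaving out arrays gave -0.0508 to 0.0797 for MT1A, -0.0472 to 0.136 for MT2A and -0.0228 to 0.0882 for MT1E over the lines, -0.0124 to 0.0798 for MT1E in KATO-III and -0.0457 to 0.0941 for MT1F between SNU-216 and SNU-601. The cause was not tested. MT1G lost its call in 6 of 21 alternatives in KATO-III, in 12 of 21 in SNU-601 and in 1 of 21 in SNU-216. MT1A lost its call in 5 of 22 in SNU-601. In KATO-III, MT1F was called without SNU-216 CD133+ replicate 1 or 2 (adjusted p = 0.0454 and 0.0456), MT1X without SNU-216 CD133- replicate 1 or 2 (both 0.0384) and MT2A without KATO-III CD133- replicate 1 (0.0479).

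Replicate numbers did not pair the arrays: over 15 pairs of populations the correlation of their deviations was -0.01 to 0.03. With the replicate block 3 members were called in KATO-III, where MT1X was added (adjusted p = 0.0469), 4 in SNU-216, 4 in SNU-601 and 0 over the lines. The precision is limited by 2 arrays per population, and MT1M, MT1H outside KATO-III and MT1G in SNU-216 by the floor.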
